A study of Homo sapiens with 12 samples.

Results

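The 10 genes described here encode 7 receptor tyrosine kinases, EGFR, ERBB2, PDGFRA, PDGFRB, MET, AXL and FGFR1, and 3 growth factors, VEGFA, EGF and FGF1. They were chosen by name, as receptors and ligands known from glioblastoma, and each was read from the array row whose single annotated gene it is. All 10 had exactly 1 such row among 21214 transcript clusters that carry a gene name. The arrays measured total RNA of U87, a human glioblastoma cell line, kept for 72 h with vehicle (V, DMSO), 3α-THP (allopregnanolone, 10 nM), P4 (progesterone, 10 nM) or F (finasteride, 100 nM). Before and during treatment all cells, the V cells included, were in medium without phenol red and with charcoal-stripped serum, and the labels disagree on the DMSO content of V. Each treatment was measured on 3 arrays numbered 1 to 3, from 3 independent experiments with 1 cell line, and the same 3 V arrays are the control of all 3 steroids. The study compared which genes the 3 steroids change in these cells. F inhibits 5α-reductase, the enzyme that starts the conversion of P4 to 3α-THP.

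Receptor tyrosine kinases are membrane proteins that pair up when a growth factor binds outside the cell, phosphorylate each other inside it, and pass the signal on through RAS and ERK and through PI3K and AKT. In glioblastoma, extra copies or activation of these receptors are a common way for the tumor to sustain growth, survival and invasion, and tumor cells can make some of the ligands themselves. EGF and FGF1 bind receptors of the EGFR and FGFR families, and VEGFA acts mainly on the cells of blood vessels. Progestins have been linked to growth factor signaling in several cell types, and they can act both through nuclear receptors and at the membrane.

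Each value below is the authors' log2 summary of a set of probes along the gene, comparable between arrays for one gene and not between genes. Levels of different genes set beside each other or beside a common bound are therefore a rough guide only. The markers of the cells were as follows. VIM, CD44, FN1 and CHI3L1, typical of mesenchymal glioma cells, had log2 levels from 11.4 to 13.2 on all arrays. The astrocyte gene GFAP had 5.99 to 6.39 and the progenitor gene NES 5.74 to 6.19. The astrocyte genes S100B and AQP4 lay on every array below a log2 level of 4.99, the bound of the lowest 25% of the named clusters. Of 10 markers of leukocytes, endothelium, epithelium and neurons, 5 lay below that bound on every array, and the highest was the keratin gene KRT8 at 6.59 to 7.61. The neuronal gene RBFOX3 had 5.61 to 6.26, a range that overlaps those of GFAP and NES. With 3 arrays in each group, the precision of all values is limited. An array reads the mean of a culture, so that fewer cells with a transcript and less of it in each cell cannot be told apart.

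Of the 10 genes, 1 passed the threshold for a change with 3α-THP, and 0 passed it with P4 or F. The threshold, taken from the study's methods, was a fold above 1.5 together with an unadjusted p below 0.05, here in limma with all 4 treatments in 1 fit. FGF1 was lower with 3α-THP, by 0.60 on the log2 scale. Among all 21214 named clusters, 0.679% passed this threshold with 3α-THP, 0.0519% as falls, while 0.0236% passed with P4 and 0.396% with F. An unadjusted p under 0.05 alone was reached by 1 of the 10 genes with 3α-THP (7.34% of all clusters), by 1 with P4 (1.82%) and by 0 with F (4.69%). None of the 10 passed the Benjamini-Hochberg adjustment over all clusters in any of 6 comparisons (with 3α-THP and with F 0.00471% of all clusters passed it, which is 1 cluster each), and the lowest adjusted p in limma was 0.608, for FGF1 with 3α-THP. The analysis of variance named in the methods called 0 of the 10 at the threshold with any steroid.

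**Figure D1:**
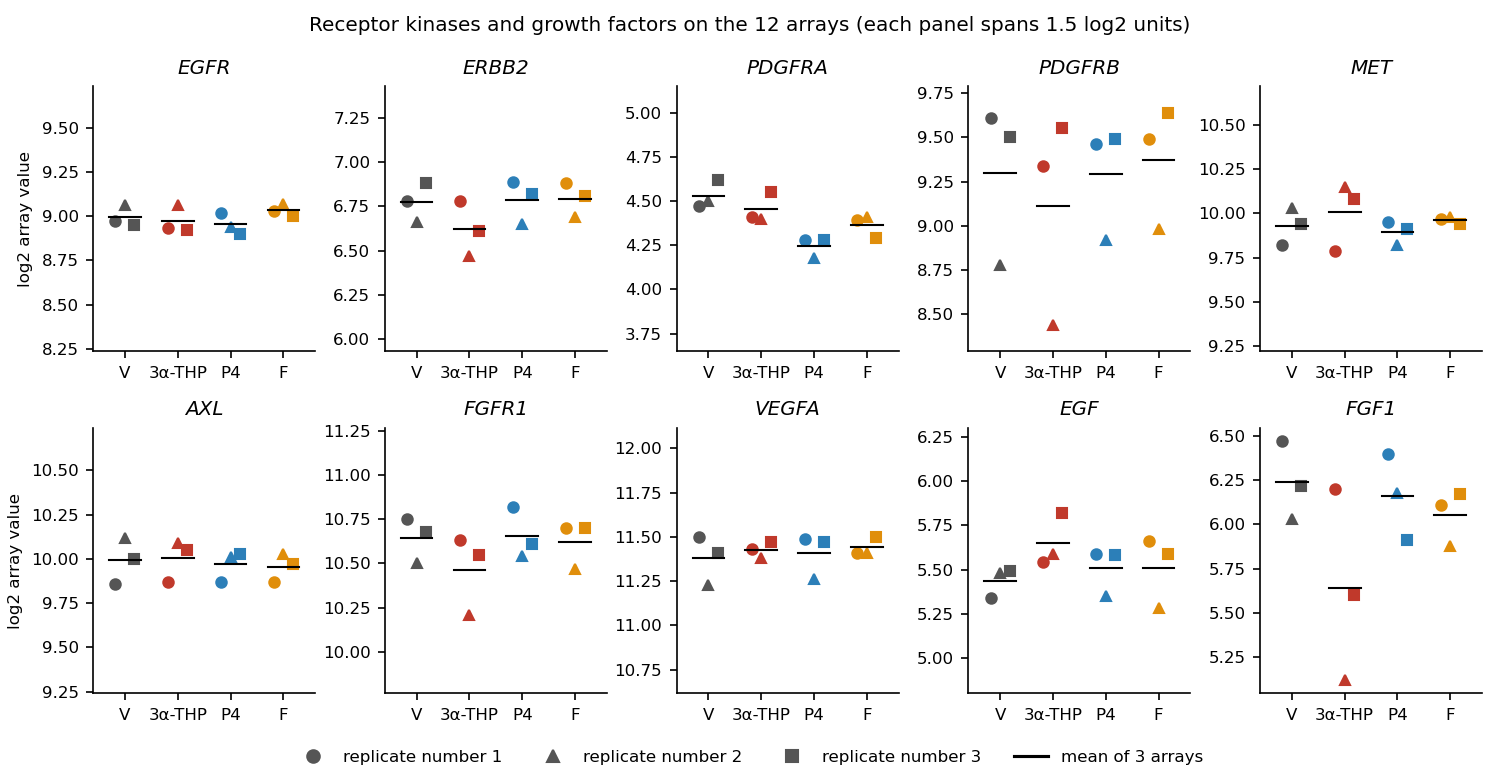
Log2 array values (vertical axis) of the 10 genes in the 4 treatments (horizontal axis), with a symbol for the replicate number of each array and a bar for the mean of the 3 arrays. Every panel spans the same 1.5 log2 units, so that the narrow range of EGFR (0.163 over 12 arrays) can be set beside the wide ones of FGF1 (1.34) and PDGFRB (1.2).

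EGFR, the receptor for EGF and the one most often amplified in glioblastoma, hardly moved on these arrays. Its log2 values were 8.97, 9.06 and 8.95 with V, 8.93, 9.06 and 8.92 with 3α-THP, 9.02, 8.94 and 8.90 with P4, and 9.03, 9.07 and 9.0 with F. All 4 treatments overlapped, and the 12 arrays spanned 0.163 log2 units. The difference from V was -0.02 with 3α-THP (95% interval -0.18 to 0.14), -0.04 with P4 (-0.20 to 0.13) and 0.04 with F (-0.12 to 0.21). ERBB2 has no known ligand of its own and signals as the partner of other receptors of the family. Arrays read log2 values of 6.78, 6.66 and 6.88 with V, 6.78, 6.47 and 6.61 with 3α-THP, 6.89, 6.65 and 6.82 with P4, and 6.88, 6.69 and 6.81 with F. The 2 lowest arrays were both with 3α-THP, and the third lay within the range of V. The difference of 3α-THP from V was -0.15 (SE 0.104, unadjusted p = 0.178), and those of P4 and F were both 0.02.

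PDGFRA, the receptor for PDGF found in glial progenitors and amplified in a subset of glioblastomas, had the lowest unadjusted p of the 10 genes in any comparison without the replicate block, with P4. With the replicate number as a block it had 0.00310, and FGF1 with 3α-THP was lower at 0.00177. Its log2 values were 4.47, 4.50 and 4.62 with V, 4.41, 4.40 and 4.55 with 3α-THP, 4.28, 4.18 and 4.28 with P4, and 4.39, 4.41 and 4.29 with F. The 3 P4 arrays lay below all 9 others, by a narrow margin, with the highest P4 array at 4.28 and the lowest F array at 4.29. P4 minus F was -0.12 (unadjusted p = 0.167 in limma). How many of all clusters have P4 arrays below all 9 others was not counted. The difference of P4 from V was -0.28 (SE 0.0797, 95% interval -0.45 to -0.11, unadjusted p = 0.00387, adjusted p in limma = 1), which did not reach the fold of 1.5. Arrays lower than all V arrays were seen in 3.47% of all clusters with P4 and in 5.51% with F, and PDGFRA was among them with both steroids. By its means the order was V, 3α-THP, F and P4 from high to low, and no neighbors in that order had an unadjusted p under 0.05. PDGFRA was the dimmest of the 10 rows and the one whose mean lies in the lowest 25% of the named clusters. Whether its signal stood above background was not tested.

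PDGFRB, the second PDGF receptor, known from pericytes and mesenchymal cells, varied more between replicate numbers than between treatments. Its log2 values were 9.61, 8.78 and 9.50 with V, 9.34, 8.44 and 9.55 with 3α-THP, 9.46, 8.92 and 9.49 with P4, and 9.49, 8.98 and 9.64 with F. In every treatment array 2 was the lowest, and the 4 arrays of that number lay below the other 8. The differences from V were -0.18 with 3α-THP, -0.01 with P4 and 0.07 with F, each with an SE of 0.292, and each 95% interval reached past a fold of 1.5 in at least one direction. Blocked by replicate number, the SE was 0.103, and the intervals of -0.41 to 0.04, -0.23 to 0.22 and -0.15 to 0.30 lay within that fold.

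MET is the receptor for hepatocyte growth factor and is tied to invasion. The log2 values of MET were 9.82, 10.03 and 9.94 with V, 9.79, 10.15 and 10.08 with 3α-THP, 9.95, 9.82 and 9.91 with P4, and 9.97, 9.98 and 9.94 with F. All treatments overlapped, and the differences from V were 0.08 with 3α-THP, -0.04 with P4 and 0.03 with F (SE 0.0986 each). AXL, which binds the ligand GAS6, had values of 9.86, 10.12 and 10.00 with V, 9.87, 10.09 and 10.05 with 3α-THP, 9.87, 10.01 and 10.03 with P4, and 9.87, 10.03 and 9.97 with F. Array 1 was the lowest in each treatment, and the differences from V ran from -0.04 with F to 0.01 with 3α-THP. FGFR1 is a receptor for FGF1 and other fibroblast growth factors. It had log2 values of 10.75, 10.50 and 10.68 with V, 10.63, 10.21 and 10.55 with 3α-THP, 10.82, 10.54 and 10.61 with P4, and 10.70, 10.47 and 10.70 with F. Within each replicate number 3α-THP had the lowest of the 4 values, and the difference from V was -0.18 (SE 0.123, unadjusted p = 0.167, adjusted p in limma = 0.817). With the replicate number as a block its unadjusted p was 0.0327 and its adjusted p in limma 0.320, at the same size, which is under the fold of 1.5.

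VEGFA, the main factor for new blood vessels, had log2 values of 11.50, 11.23 and 11.41 with V, 11.43, 11.38 and 11.47 with 3α-THP, 11.49, 11.26 and 11.47 with P4, and 11.41, 11.41 and 11.50 with F. All treatments overlapped, and the differences from V were 0.04 with 3α-THP, 0.02 with P4 and 0.06 with F, with 95% intervals that stayed between -0.18 and 0.26. EGF, the founding ligand of the EGFR family, had 5.34, 5.48 and 5.49 with V, 5.54, 5.59 and 5.82 with 3α-THP, 5.59, 5.35 and 5.58 with P4, and 5.66, 5.28 and 5.59 with F. The 3 arrays with 3α-THP lay above the 3 V arrays, as in 4.02% of all clusters. The difference was 0.21 (SE 0.116, 95% interval -0.04 to 0.46, unadjusted p = 0.0968), beside 0.07 with P4 and 0.07 with F, where the arrays overlapped.

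FGF1, a fibroblast growth factor that binds all FGF receptors and leaves the cell without a signal peptide, was the gene that passed the threshold. Its log2 values were 6.47, 6.03 and 6.22 with V, 6.20, 5.12 and 5.60 with 3α-THP, 6.40, 6.18 and 5.91 with P4, and 6.11, 5.88 and 6.17 with F. Arrays 2 and 3 with 3α-THP were the lowest of the 12, while array 1 with 3α-THP lay within the range of V. The difference of 3α-THP from V was -0.60 (SE 0.220, 95% interval -1.07 to -0.12, unadjusted p = 0.0182, adjusted p in limma = 0.608), a fold of 1.51 where the threshold is 1.5. Within the replicate numbers it was -0.27, -0.90 and -0.62, and with the number as a block its unadjusted p was 0.00177 and its adjusted p in limma 0.118. The SD of the 3 arrays was 0.540 with 3α-THP, 0.220 with V, 0.247 with P4 and 0.153 with F. The call was lost without V array 1 (-0.48), without 3α-THP array 2 (-0.34) or without 3α-THP array 3 (-0.58). It was kept without any other single array, but leaving out a P4 or F array cannot change this difference. By its means the order was V, P4, F and 3α-THP from high to low. V, P4 and F did not differ beyond their spread, with unadjusted p of 0.411 and more among them, and of 0.237 and more with the block. The neighbors F and 3α-THP differed by -0.41 (3α-THP minus F), with an unadjusted p = 0.0864 in limma and 0.0182 with the block. Within the replicate numbers 3α-THP minus F was 0.09, -0.75 and -0.57, and the adjusted p in limma with the block was 0.946.

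**Figure D2:**
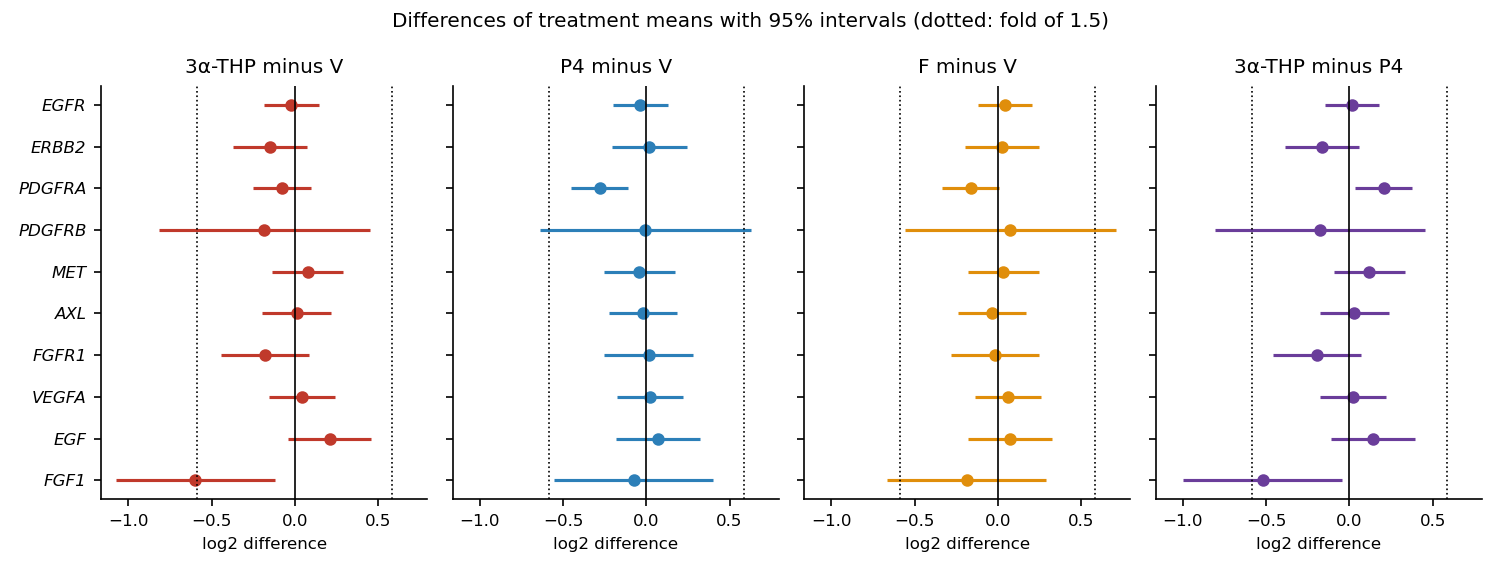
Differences of treatment means on the log2 scale (horizontal axis) for the 10 genes (vertical axis), with limma's 95% intervals as lines and a fold of 1.5 in either direction as dotted lines. FGF1 with 3α-THP is the one point past a dotted line, and the intervals of PDGFRB, from the fit without the replicate block, reach past one in all 4 panels.

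The FGF1 gene has several annotated starts of transcription, and the array row does not tell which were in use. The stretches before 3 of its 4 starts in RefSeq are shown, since FGF1 is the gene that passed the threshold. Both stretches of PDGFRA, whose P4 arrays lay below all V arrays, are shown with them. Each is 250 bases, up to the base before the start, on the GRCh38.p14 build and on the strand of the gene, and the stretch of the FGF1 start left out overlaps the first one shown. Capitals mark matches on either strand to any of 5 motifs, TGACG (the core of the CREB site), TTGCNNAA (a form of the CEBP site), TGTTCT (one arm of the site shared by the progesterone, androgen and glucocorticoid receptors), GGGCGG (the GC box) and TATAAA (the TATA box).
FGF1 start 1, chr5:142698071-142698320, minus strand: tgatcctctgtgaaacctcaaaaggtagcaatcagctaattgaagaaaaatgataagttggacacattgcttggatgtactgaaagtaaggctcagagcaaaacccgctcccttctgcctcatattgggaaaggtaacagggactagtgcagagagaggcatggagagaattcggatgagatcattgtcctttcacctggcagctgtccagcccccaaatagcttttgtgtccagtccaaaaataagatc
FGF1 start 3, chr5:142686091-142686340, minus strand: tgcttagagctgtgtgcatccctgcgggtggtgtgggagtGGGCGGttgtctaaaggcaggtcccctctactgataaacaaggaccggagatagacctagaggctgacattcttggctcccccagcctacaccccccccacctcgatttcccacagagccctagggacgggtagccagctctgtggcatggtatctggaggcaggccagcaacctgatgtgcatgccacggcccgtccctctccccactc
FGF1 start 4, chr5:142644240-142644489, minus strand: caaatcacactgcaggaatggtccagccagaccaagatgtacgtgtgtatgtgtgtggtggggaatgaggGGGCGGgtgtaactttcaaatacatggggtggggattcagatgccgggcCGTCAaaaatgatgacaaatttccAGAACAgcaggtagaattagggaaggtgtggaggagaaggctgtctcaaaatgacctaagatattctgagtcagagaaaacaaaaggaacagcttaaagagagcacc
PDGFRA start 1, chr4:54229043-54229292, plus strand: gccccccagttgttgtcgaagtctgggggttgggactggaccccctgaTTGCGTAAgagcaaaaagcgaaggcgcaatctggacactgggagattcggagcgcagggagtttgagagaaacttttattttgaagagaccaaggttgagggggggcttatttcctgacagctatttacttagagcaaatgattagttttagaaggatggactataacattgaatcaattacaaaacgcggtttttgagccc
PDGFRA start 2, chr4:54233710-54233959, plus strand: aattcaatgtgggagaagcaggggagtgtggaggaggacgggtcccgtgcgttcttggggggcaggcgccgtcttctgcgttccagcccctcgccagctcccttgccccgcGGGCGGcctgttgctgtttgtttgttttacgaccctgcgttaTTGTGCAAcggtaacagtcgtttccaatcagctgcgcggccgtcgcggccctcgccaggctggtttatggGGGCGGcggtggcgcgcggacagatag

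The stretch before FGF1 start 4 holds 1 match each to the CREB core, the receptor arm and the GC box, start 3 holds 1 GC box, and starts 1 and 2 hold none of the 5 motifs. Both PDGFRA stretches hold 1 match to the CEBP form. Over all 35116 stretches in RefSeq, 21.2% hold the CREB core, 9.05% the CEBP form, 12.4% the receptor arm, 42.6% the GC box and 10.7% the TATA box. For 8 of the 10 genes, with 14 stretches in all, 2 stretches hold the CREB core, 4 the CEBP form, 1 the receptor arm, 7 the GC box and 1 the TATA box. A match describes letters and not the binding of a factor.

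3α-THP and P4, its precursor with a double bond in the first ring and a ketone where 3α-THP has a hydroxyl group, were given at the same dose of 10 nM, so that their arrays can be compared directly. None of the 10 genes passed the threshold between them (0.25% of all clusters did). For 8 of the 10 genes the 95% interval of the difference lay within a fold of 1.5 in either direction, and PDGFRB and FGF1 were the exceptions (FGF1 alone with the replicate block). FGF1 was lower with 3α-THP at -0.52 (SE 0.220, 95% interval -0.999 to -0.04, unadjusted p = 0.0345), and in all 3 replicate numbers, at -0.20, -1.05 and -0.31. It was -0.26 (unadjusted p = 0.191 in limma) without 3α-THP array 2 and -0.80 without 3α-THP array 1. PDGFRA was higher with 3α-THP at 0.20 (SE 0.0797, 95% interval 0.03 to 0.38, unadjusted p = 0.0238), and its 3 arrays lay above those of P4, as in 3.13% of all clusters. These 2 of the 10 genes had an unadjusted p under 0.05 between the steroids, as did 3.96% of all clusters, and in limma both had an adjusted p = 0.999. FGFR1 (-0.19, 95% interval -0.46 to 0.07) and ERBB2 (-0.17, 95% interval -0.39 to 0.06) were lower with 3α-THP in each replicate number, with unadjusted p of 0.138 and 0.135, and of 0.0230 and 0.0419 with the replicate block, under which 4 of the 10 genes and 9% of all clusters had an unadjusted p under 0.05. FGFR1 had an adjusted p in limma of 0.485 and ERBB2 of 0.532 with the block. The smallest differences were those of EGFR at 0.02 (-0.15 to 0.18) and VEGFA at 0.02 (-0.18 to 0.22).

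F was given at 100 nM, 10 times the dose in the other 2 groups, and its values stand beside theirs without a match in dose. Against V, the 10 genes ran from -0.19 (FGF1) to 0.07 (PDGFRB) with F, from -0.28 (PDGFRA) to 0.07 (EGF) with P4, and from -0.60 (FGF1) to 0.21 (EGF) with 3α-THP. The medians of the 10 were 0.03, -0.01 and -0.05, beside -0.02, -0.01 and -0.03 over all clusters. With each steroid the interval lay within a fold of 1.5 for most of the 10, namely 8 with 3α-THP, 9 with P4 and 8 with F, and 9, 10 and 10 with the replicate block. None passed the threshold between 3α-THP and F (0.0566% of all clusters did) or between P4 and F (0.0519%). Between 3α-THP and F, 0 of the 10 had an unadjusted p under 0.05 in limma. With the replicate block 4 did (5.02% of all clusters), ERBB2 (0.0361), PDGFRB (0.0274), FGFR1 (0.0485) and FGF1 (0.0182), all lower with 3α-THP. Each of these 4 had an adjusted p in limma of 0.946 with the block. PDGFRA, at -0.28 with P4, was also at -0.16 with F (SE 0.0797, unadjusted p = 0.0609), with all 3 F arrays under the V arrays, and at -0.08 with 3α-THP, with overlap. The 3 differences use the same V arrays.

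The replicate number accounted for more of the spread between arrays than the treatment did in 8 of the 10 genes. The shares were close in MET (21.2% beside 18.0%) and EGF (30.4% beside 27.9%). They were not computed over all clusters, so that the count is not known to be particular to these genes. Its share was 88.2% for AXL, 86.4% for PDGFRB and 64.4% for FGFR1, beside 4.04%, 6.47% and 26.3% for the treatment. The treatment had the larger share in PDGFRA, with 76.5% beside 5.19%, and in FGF1, with 42.9% beside 33.9%. In limma's F test of the number, with the treatment in the fit, 3 of the 10 genes passed at the adjusted p, PDGFRB (0.000262), FGFR1 (0.0191) and FGF1 (0.0487), where 16.1% of all clusters did. Without the treatment in the fit, where 15.1% of all clusters passed, FGF1 did not pass (adjusted p in limma = 0.186) and AXL did (0.0465). The mean of the 4 arrays of number 2 was under that of the other 8 by a log2 difference of -0.73 in PDGFRB, -0.25 in FGFR1 and -0.33 in FGF1. Array 2 of 3α-THP held the lowest of the 12 values in 4 of the 10 genes, ERBB2, PDGFRB, FGFR1 and FGF1. How often that array was the lowest over all clusters was not counted.

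**Figure D3:**
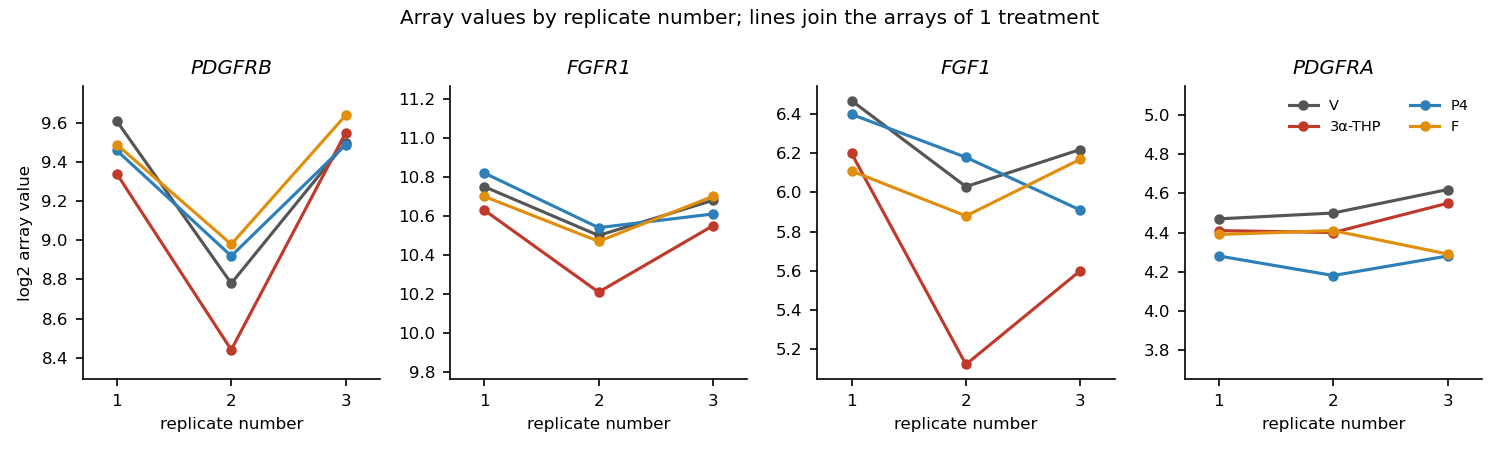
Log2 array values (vertical axis) of 4 genes against the replicate number (horizontal axis), with a line for each treatment. PDGFRB and FGFR1 dip at number 2 in all 4 treatments, FGF1 with 3α-THP has the lowest point of its panel there at 5.12, and PDGFRA keeps P4 lowest at every number.

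The genes most like FGF1 over the 12 arrays, out of 19459 other clusters with 1 gene, were LFNG, a glycosyltransferase that modifies Notch receptors, TGFBR2, a receptor for TGF-beta, and NIBAN2. Their Pearson correlations with FGF1 across arrays were 0.966, 0.957 and 0.95. Most opposite were SLC7A11, the cystine transporter, at -0.943, NRG1, a ligand of the ERBB3 and ERBB4 receptors, at -0.940, and CCDC138 at -0.939. These correlations are a description over arrays that share treatments and replicate numbers, and the 6 genes are extremes out of many. With 3α-THP against V, LFNG had a log2 difference of -0.48, TGFBR2 of -0.27 and NIBAN2 of -0.22. SLC7A11 had 0.90, NRG1 0.42 and CCDC138 0.20. Since the 6 genes were chosen by their correlation over the same 12 arrays, the signs of these differences largely follow from the choice. They are not a separate test of 3α-THP. CCDC138 had treatment means of 3.91 to 4.15, below the log2 bound of 4.99 given above.

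Among receptor tyrosine kinases as a family, 53 of 58 were read from a row of their own, and 0 of them passed the threshold with 3α-THP, P4 or F, in limma and likewise in the methods' analysis of variance. With 3α-THP the median log2 difference of the 53 was -0.07 (-0.03 over all clusters). An unadjusted p under 0.05 was reached by 4, all lower (7.34% of all clusters, in either direction). With the replicate block 9 reached it (13.4% of all clusters did). In 11 of the 53 the 3α-THP arrays did not overlap those of V, beside 11.3% of all clusters. With P4 and with F, 1 receptor each had an unadjusted p under 0.05, beside 1.82% and 4.69% of all clusters. With the replicate block 2 each did, beside 3.8% and 8.54%. ROR2, a receptor for Wnt5a, had a log2 difference of -0.34 with 3α-THP (SE 0.126), and EPHB4, a receptor for ephrin-B2, -0.23 (SE 0.0869), with 3α-THP arrays of 7.12 to 7.30 below the V arrays of 7.35 to 7.50. EPHA2, named after its value was seen, had the lowest difference of the family at -0.45 and passed the threshold without 3α-THP array 1 (-0.65). With P4 the 2 smallest p were those of PDGFRA and of EPHB3 (-0.25, SE 0.138), and with F those of TEK, the angiopoietin receptor (0.23, SE 0.0912, in a row below the 25% bound in all treatments), and again PDGFRA.

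Of 46 genes of the EGF, PDGF, HGF, GAS6, FGF and VEGF families, 44 were measured. They are called ligands here by family, which does not mean that each acts on a receptor. FGF1 alone passed the threshold, with 3α-THP, and none passed with P4 or F. VEGFB, a relative of VEGFA, had -0.26 with 3α-THP (SE 0.0851, unadjusted p = 0.00875) and -0.22 with F, with arrays of 9.04 to 9.26 and 9.15 to 9.29 below the V arrays of 9.41 to 9.49. Arrays below all V arrays were seen in 7.28% of all clusters with 3α-THP and in 5.51% with F. FGF14, a factor that stays inside the cell, had 0.34 with P4 (SE 0.121) and the signal of its row lay below the 25% bound in all treatments. FGF3 had -0.28 with P4 (SE 0.104), -0.24 with 3α-THP (unadjusted p = 0.0378) and -0.19 with F. NRG1, named after its value was seen and here in its brightest row, which is another than the one most opposite to FGF1, had 0.45 with 3α-THP (unadjusted p = 0.0709) and passed the threshold without 3α-THP array 1 (0.76). Among the 44, 5 had an unadjusted p under 0.05 with 3α-THP, 2 with P4 and 1 with F, beside 7.34%, 1.82% and 4.69% of all clusters. With the replicate block the counts were 10, 2 and 2, beside 13.4%, 3.8% and 8.54% of all clusters. The medians of the 44 were -0.03 with 3α-THP, -0.01 with P4 and -0.01 with F.

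Inside the cell, 28 of 37 genes that relay the signal from the receptors were measured, and 0 passed the threshold with any steroid (limma and the methods' analysis of variance). RICTOR, a subunit of the mTOR complex that phosphorylates AKT, came closest with 3α-THP at 0.48 (SE 0.167, unadjusted p = 0.0124, adjusted p in limma = 0.566), with the range of V (7.59 to 8.07) overlapping that of 3α-THP (8.02 to 8.52). It passed without V array 2 (0.62) or 3α-THP array 1 (0.62). FRS3, an adaptor of FGF receptors, had -0.31 with 3α-THP (SE 0.108) and -0.29 with F, with all arrays of both steroids (6.27 to 6.61 and 6.40 to 6.51) below those of V (6.64 to 6.94). The same was seen in 7.28% of all clusters with 3α-THP and in 5.51% with F. SOS1, which loads RAS with GTP, had 0.17 with 3α-THP, 0.17 with F and 0.11 with P4, and MAP2K2, a kinase of ERK, had -0.19 with P4 (SE 0.0778). In this list 5 of the 28 genes had an unadjusted p under 0.05 with 3α-THP (7.34% of all clusters did), 1 with P4 (1.82%) and 1 with F (4.69%). With the replicate block the counts were 6 (13.4% of all clusters), 1 (3.8%) and 2 (8.54%).

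Of 22 genes that hold receptor signals back, 20 were measured, and 0 passed the threshold with any steroid (limma and the methods' analysis of variance), with 1, 0 and 0 of the 20 at an unadjusted p under 0.05 with 3α-THP, P4 and F, beside the same 7.34%, 1.82% and 4.69%. PTPN1, a phosphatase of receptors, had -0.19 with 3α-THP (SE 0.0830) and SOCS3, a feedback inhibitor of cytokine signals, -0.26 (SE 0.141). LRIG3 had 0.13 and SPRY3, of the Sprouty inhibitors, -0.12 with P4. NF1, which switches RAS off, had 0.14 and CBLB, a ubiquitin ligase, 0.20 with F. Of 17 genes induced by ERK signaling, 16 were measured, and again 0 passed by either test, with 2, 0 and 2 of the 16 at an unadjusted p under 0.05, beside those shares. With the replicate block the counts were 2, 0 and 1 of the 20 and 2, 0 and 2 of the 16. Of all clusters, 13.4%, 3.8% and 8.54% reached it with the block. IER2 had -0.26 with 3α-THP (SE 0.0884), and the AP-1 gene JUNB had -0.21 with 3α-THP and -0.18 with F (SE 0.0828 each), with all arrays of both below those of V. Such arrays were seen in 7.28% of all clusters with 3α-THP and in 5.51% with F. FOSB, also of AP-1, had -0.26 with F (SE 0.119). IER3 had -0.09 and the ETS factor ETV1 0.13 with P4. The median of this list was 0.00 with 3α-THP, -0.02 with P4 and -0.05 with F.

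At a fold above 1.2 with the same p, 4.39% of all clusters passed with 3α-THP, 0.891% with P4 and 3.05% with F. With 3α-THP the receptor kinases EPHA2 and ROR2, the ligands FGF1 and VEGFB, and the relay genes RICTOR, FRS3 and SHC1 passed. With P4 they were PDGFRA, FGF14 and FGF3, and with F FRS3. FGF1 also passed between 3α-THP and P4, as did 2.36% of all clusters.

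**Figure D4:**
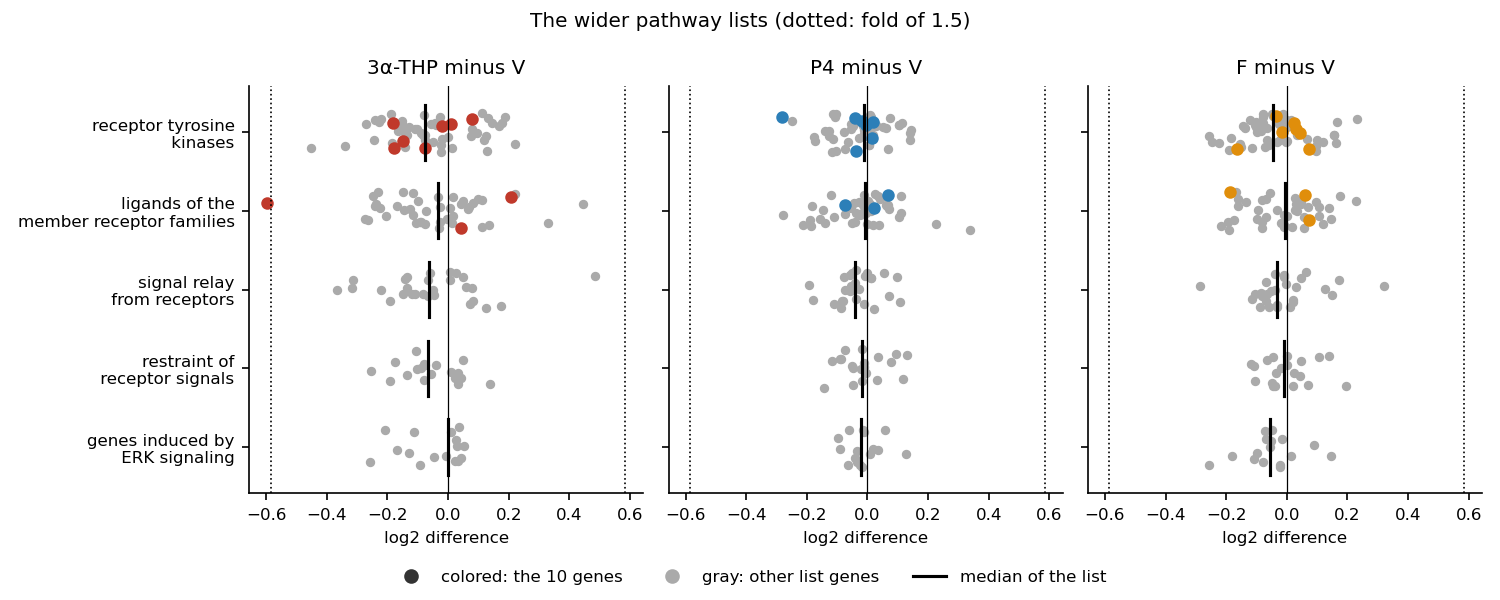
Log2 differences from V (horizontal axis) of the genes in the 5 lists (vertical axis) with each steroid, with the 10 genes in color, other genes in gray, the median of each list as a black bar and a fold of 1.5 as dotted lines. FGF1 with 3α-THP is the one point past a dotted line, and the medians lie between -0.07 and 0.00.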

How the data were processed

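Total RNA of 12 U87 cultures was hybridized to Human Gene 1.0 ST arrays, with 3 arrays to a treatment. The deposited values are log2 signals per transcript cluster. According to the processing notes of the submitters, Affymetrix Expression Console 1.4 was used, and the values are already normalized between arrays, with array medians of 6.35 to 6.40. The methods name quantile normalization. Of 33297 clusters, 21214 carry at least 1 gene name in the platform annotation, 19460 of them a single gene. All 21214 entered limma (version 3.58.1, R 4.3.3), which fitted a mean for every treatment and moderated the variances, followed by Benjamini-Hochberg adjustment over all of them. The fit was tested on simulated data with independent noise. An effect of the replicate number was simulated for the fit with the block alone, so the main fit was not tested under such an effect. Errors given as SE and 95% intervals are those of limma, and SD is that of the 3 arrays.

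Replicate numbers pair the arrays. In 18 pairs of arrays that share a number, deviations from the treatment means correlated at 0.132 to 0.631 (median 0.400). Over 36 other pairs they correlated at -0.604 to 0.226 (median -0.245). Deviations within a treatment cancel out, so that both sets of correlations depend on each other. The design states 3 independent experiments. Values with the number as a block are given for differences of the 10 genes that it moves across an unadjusted p of 0.05, and for the counts in the lists.

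The 10 genes and the 5 wider lists were chosen with earlier results of these data known, and the lists were written from general knowledge. In each list the text names the genes that passed and the pair with the lowest p for each steroid, and others are marked as chosen later. For the gene that passed the threshold, the 3 clusters most like it and the 3 most opposite are named. List genes without a row of their own are not analysed here. Alternatives varied the replicate block, which arrays were fitted, the statistical test, the normalization, which clusters were included, the prior on the variance, weights on arrays and the fold, and dropped each array in turn. Leaving out the arrays of number 2 was added after seeing the data.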

Additional observations from a re-analysis of the deposited data

How the results depend on the processing

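With 3α-THP the count of the 10 genes past the threshold was 1, FGF1. It was 0 with the methods' analysis of variance (unadjusted p = 0.0548), after cyclic loess normalization (-0.58) and with array weights (-0.58). It was also 0 with the arrays of number 2 left out (-0.44), and 0 to 1 without single arrays. The count was 1 with the replicate block, in which no call of the 10 genes or of the 5 lists changed. FGF1 kept its negative sign in 24 alternatives, at -0.88 to -0.34, and passed the threshold in 17. Many of these leave the V and 3α-THP values as they are, so that sign and size are fixed by construction. The 17 is therefore no measure of stability. Where the difference itself can change, quantile normalization kept the call (-0.61). So did leaving out V array 2 (-0.70), V array 3 (-0.61) or 3α-THP array 1 (-0.88). The call was lost after cyclic loess, with array weights, without number 2, and without V array 1, 3α-THP array 2 or 3α-THP array 3. The count of ligands was likewise 0 with the analysis of variance, cyclic loess, array weights and the arrays of number 2 left out. The count of ligands was 0 to 2 without single arrays. That of receptor kinases was 0 to 1, and that of relay genes 0 to 1 and also 1 with array weights and with the arrays of number 2 left out, the gene being RICTOR. At a fold over 1.2 the count of the 10 was 1 with P4 (PDGFRA) and 1 between 3α-THP and P4 (FGF1). At that fold, chosen for the lists after seeing the data, 2 receptor kinases, 2 ligands and 3 relay genes passed with 3α-THP, 1 receptor kinase and 2 ligands with P4, and 1 relay gene with F. Without single arrays it was 0 to 1 between 3α-THP and P4 and between 3α-THP and F, with FGF1 called without 3α-THP array 1 in both (-0.80 and -0.69) and without P4 array 3 in the first (-0.65). FGF1 between 3α-THP and P4 was -0.26 without 3α-THP array 2, and between 3α-THP and F -0.15. Over 1434 differences of the 10 genes under alternatives, 1424 stayed on their side of the threshold, and 83, none of them past it, changed sign. Many of the 1434 equal the main difference by construction, and most of the 10 genes lay far under the fold. The total is therefore no measure of stability. The number effect kept its count of 3 without the treatment in the fit. No second row of the 10 genes could be tried, since each has 1. PDGFRA has no value with dim clusters left out. The cause of the changes was not tested beyond the array or fit named.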
